A study of Mus musculus with 46 samples.

Results

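Islets from mice labelled Clec16a KO were compared with islets labelled Clec16a control, both on the diet that the labels call RFD, to ask which transcripts differ between the genotypes. The members are the 8 islet RNA-seq libraries that carry these labels, 4 per genotype, out of 46 libraries in the series and 19 Clec16a islet libraries. The other 11 Clec16a islet libraries, 6 control and 5 KO on a diet called HFD, entered the same model so that all groups shared 1 estimate of the spread. The labels write out neither diet and give no promoter for the deletion, age, sex or strain of these mice, so the cells that lost the gene are not given in the sources used here. Islets had been cultured overnight before RNA was taken, and each library is labelled as a separate biological replicate. Values below are CPM, read counts scaled to a common library size by the TMM method, listed in the order of replicates 1 to 4. A gene is called where the quasi-likelihood test of edgeR gave a Benjamini-Hochberg adjusted p of 0.05 or less over all genes tested.

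Total counts on RFD ran from 17560160 to 55810880 per library. Insulin, glucagon and somatostatin transcripts were abundant in all 8 libraries, and Ins2 alone stood between 144018.8 and 230919.6 CPM. All 8 libraries held Xist, between 340.9 and 534.2 CPM, with 0 counts of the Y-linked Ddx3y, although the series text names both sexes. One KO-labelled library, replicate 1, also carried transcripts of intestinal epithelium. Alpi, an intestinal alkaline phosphatase, stood at 32.6, 0, 0.448 and 0.0176 CPM in the KO-labelled libraries and at 0, 0, 0 and 0.0254 CPM in the controls. The number of calls without replicate 1 is given below. KO-labelled replicate 3 held traces, with 0 of 15 intestinal genes at 0 counts. Its mean log2 CPM over them was -1.16, against 3.16 in KO-labelled replicate 1 and -2.54 and -2.38 in replicates 2 and 4. The controls ran from -2.40 to -2.23. Fits without the libraries with intestinal transcripts kept KO-labelled replicate 3.

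Clec16a encodes an endosomal regulator that works with the ubiquitin ligase Nrdp1, the product of Rnf41, and the deubiquitinase Usp8 to control mitophagy, the removal of damaged mitochondria through the lysosome. Beta cells depend on mitochondrial ATP to couple glucose to insulin release. Stressed mitochondria can signal to the nucleus through the integrated stress response, in which phosphorylation of eIF2α favours translation of the transcription factor ATF4, and ATF4 raises genes of amino acid synthesis, amino acid import and secreted peptides such as GDF15.

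The targeted gene did not show the genotype in its own counts. Clec16a (ENSMUSG00000068663, GRCm38 chromosome 16, 10545339 to 10744878, plus strand) stood at 21.4, 20.9, 26.5 and 28.4 CPM in the controls and at 23.4, 26.9, 25.7 and 30.04 CPM in the KO-labelled libraries. The groups overlapped, with a log2 fold change of 0.13 (SE 0.13) and an adjusted p of 0.612 by edgeR. A count over the whole gene can stay level when only some exons are removed, and the exon deleted is not given in the sources used here, so the genotypes below are those of the labels. Rnf41 stood at 41.2, 42.6, 44.8 and 43.4 CPM in the controls and at 50.7, 48.2, 44.1 and 50.4 CPM in the KO-labelled islets, and Usp8 overlapped likewise, and neither was called. Of 23 tested mitophagy genes, 1 was called, or 4.35% against 7.52% of all genes. That was the mitophagy receptor Optn, which was lower, at 16.3, 17.4, 10.4 and 10.4 CPM against 20.04, 19.1, 25.3 and 25.2 CPM. It had a log2 fold change of -0.73 (SE 0.18) and an adjusted p of 0.0159. The median log2 fold change of the list was 0.01, and Optn was no longer called without control replicate 3 or 4 or KO replicate 3 or 4, where its adjusted p reached 0.060.

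Across 17254 genes tested, 1298 were called (7.52% of those tested), 688 higher (3.99%) and 610 lower (3.54%) in the KO-labelled islets, with 474 changed by 2-fold or more. The median log2 fold change of all genes was -0.002, and in 2599 genes (15.1%) the values of the 2 groups did not overlap. The call count rested on single libraries: it was 827, 523 and 595 without control replicate 1, 3 or 4, and 818, 838 and 741 without KO replicate 2, 3 or 4. Without KO replicate 1 it was 1224, and without KO replicate 4 of the HFD group, whose levels lay with the controls, it was 2015. A covariate for Xist brought it to 629, and 25 of the 91 called genes named here lost their call in that fit, Optn, Atf4, Atf5, Ppp1r15a, Nupr1, Fgf21, Shmt2, Mthfd2, Asns, Got1, Slc2a2, Gipr and Ffar1 among them. With the level of endothelial markers as a covariate edgeR called 0 genes, with 433 at an unadjusted p under 0.05. That level did not overlap between the 2 genotypes on RFD, so in these libraries genotype and endothelial level cannot be told apart. The fit held all 19 libraries, and its slope came from differences within groups. KO replicate 4 of the HFD group had a mean log2 CPM of 5.01 over these markers, against 5.58 to 5.91 in the other KO-labelled HFD libraries. How far that library set the slope was not tested. With the endothelial covariate all genes called below lost their call, and the sign of 11 turned, among them Ppp1r15a, Fgf21, Slc2a2, Gipr and Plvap. The strand setting of the counting is not given in the sources used here, and 29 of the 107 genes named share exon bases with a gene on the opposite strand, Trpm5, Psph, Aldh1l2, Slc43a2 and Hmgcs1 among them, so reads of the partner may be included.

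Regulators of the integrated stress response were among the genes that rose. Of 22 tested, 10 were called higher and 0 lower, against 3.99% higher among all genes, and the list's median log2 fold change was 0.70. In fits without 1 RFD library 5 to 10 of them were called, fewest without control replicate 3, and 6 each without control replicate 1 or KO replicate 2. Trib3, a pseudokinase induced by ATF4, stood at 2.38, 3.05, 8.25 and 14 CPM in the controls and at 59.6, 56.8, 49.9 and 49.5 CPM in the KO-labelled islets, and the groups did not overlap. Its log2 fold change was 2.95 (SE 0.59), with an adjusted p of 0.00653. Chac1, which degrades glutathione, went from 5.91, 12.7, 19 and 22 CPM to 63.6, 75.7, 69.3 and 65.9 CPM. Control replicates 3 and 4 were the highest controls for both genes, yet every KO-labelled library was above them. Cdkn1a, the cell cycle inhibitor p21, was 11.9, 19.3, 13.5 and 20.9 CPM in the controls and 114, 107, 116 and 125 CPM in the KO-labelled libraries, with a log2 fold change of 2.81 (SE 0.45) and an adjusted p of 0.00263.

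Atf4 itself rose from 219, 314, 251 and 305 CPM to 379, 469.7, 446 and 436 CPM, a log2 fold change of 0.67 (SE 0.17) with an adjusted p of 0.0185. Its relative Atf5, a factor of the mitochondrial stress response, stood at 111, 153, 174 and 233 CPM and 298, 302, 400.1 and 350.1 CPM, a call lost in 6 of the 8 fits without 1 RFD library (adjusted p of up to 0.10). Cebpb, which encodes a partner of ATF4, had a log2 fold change of 1.58 (SE 0.28), and Ppp1r15a, which encodes the eIF2α phosphatase subunit GADD34, one of 0.81 (SE 0.19). Ddit3, which encodes the factor CHOP, was not called: it stood at 22.9, 24.9, 32.3 and 38.3 CPM and 45, 44.2, 46.2 and 43.7 CPM, with an adjusted p of 0.132, although the groups did not overlap. Calls for Trib3, Chac1, Cdkn1a, Cebpb and Ppp1r15a held in each of the 8 fits without 1 RFD library. The call for Atf4 was lost without control replicate 1 or 3 or KO replicate 2, with an adjusted p of up to 0.066.

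Several secreted stress peptides rose as well. Of 9 tested, 6 were called higher and 0 lower, against 3.99% higher among all genes. The list's median log2 fold change was 2.06, and 4 were called in each fit without 1 RFD library. Gdf15 (ENSMUSG00000038508, GRCm38 chromosome 8, 70629393 to 70632456, minus strand), a circulating cytokine of mitochondrial stress, stood at 0.269, 0.401, 0.397 and 0.686 CPM in the controls and at 12.2, 8.33, 12 and 8.31 CPM in the KO-labelled islets. Its lowest KO-labelled library lay above every control, at a fitted 22.5-fold, a log2 fold change of 4.49 (SE 0.77) with an adjusted p of 0.00348. Adm2, a peptide of the calcitonin family, stood at 0.346, 0.892, 1.76 and 2.26 CPM and 21.1, 22.9, 27.5 and 23.9 CPM, a log2 fold change of 4.17 (SE 0.75). Vgf, a neuroendocrine granule peptide, and Angptl6, a secreted angiopoietin-like protein, had log2 fold changes of 2.06 (SE 0.43) and 1.97 (SE 0.43). Fgf21, a metabolic hormone, stayed low at 0.230, 0.535, 0.220 and 0.533 CPM and 2.97, 2.16, 2.45 and 1.53 CPM, and its call (adjusted p of 0.0459) was lost in each of the 8 fits without 1 RFD library.

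**Figure D1:**
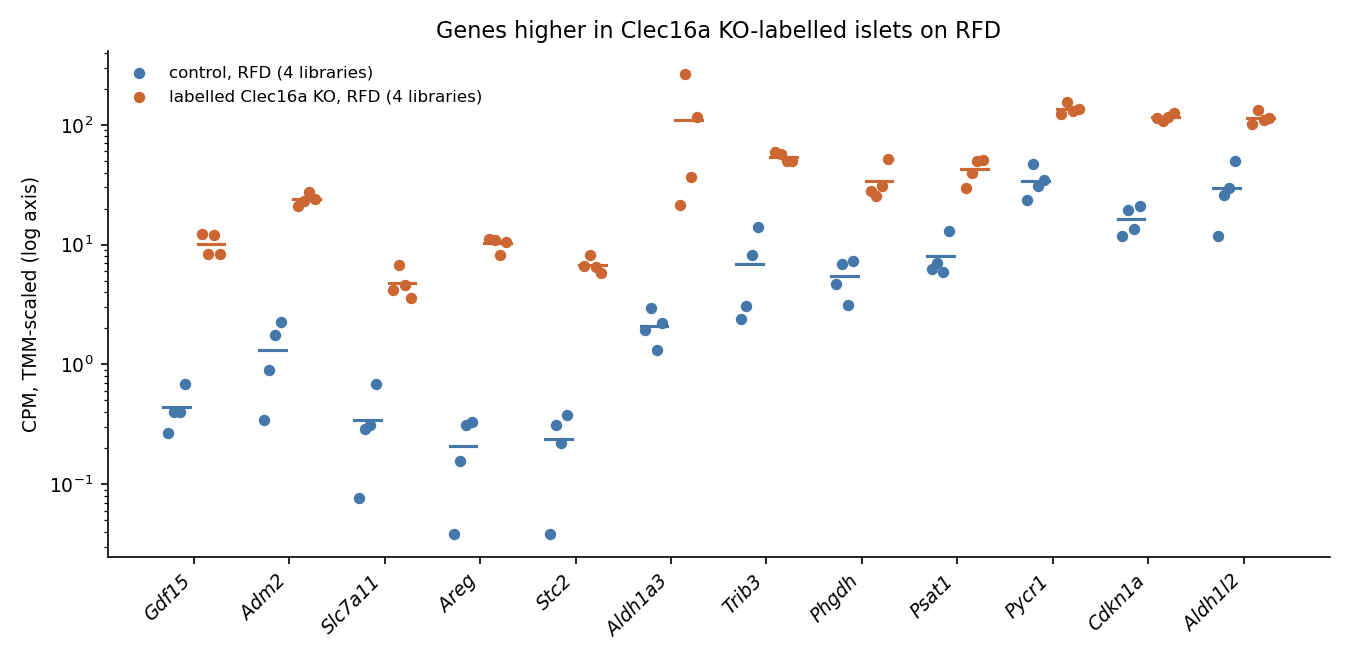
CPM on a log axis for 12 genes in the 4 control (blue) and 4 Clec16a KO-labelled (orange) islet libraries on RFD; points are libraries and bars are group means. In each of the 12 genes all KO-labelled points lie above all control points; Aldh1a3 has the widest spread among the KO-labelled libraries, from 21.4 to 267.1 CPM.

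Among enzymes of serine and one-carbon metabolism, 7 of 18 were called higher and 0 lower, against 3.99% higher among all genes. The list's median was 0.30 on the log2 scale. Calls fell to 4 without control replicate 1 or 3 or KO replicate 3. The 3 enzymes of serine synthesis were all called: Phgdh went from 4.68, 6.87, 3.13 and 7.24 CPM to 28.1, 25.2, 31 and 51.7 CPM, a log2 fold change of 2.62 (SE 0.48) with an adjusted p of 0.00438. Psat1 stood at 6.22, 7.07, 5.95 and 13.1 CPM and 29.6, 39.3, 50.3 and 51 CPM, with a log2 fold change of 2.39 (SE 0.42). Psph had a log2 fold change of 1.39 (SE 0.28). The mitochondrial folate enzyme Aldh1l2 stood at 11.9, 25.7, 29.9 and 50.2 CPM and 102, 133, 110.5 and 113 CPM, without overlap. Mitochondrial Shmt2 and Mthfd2 had log2 fold changes of 0.69 (SE 0.20) and 0.95 (SE 0.25), and their calls were lost in 7 and 4 of the 8 fits without 1 RFD library, with adjusted p of up to 0.12 and 0.088.

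Among 19 enzymes of proline, asparagine and transamination, 7 were called higher and 1 lower, against 3.99% and 3.54% of all genes. The list's median log2 fold change was 0.41. Calls that rose numbered 4 without control replicate 3, and the lower call stayed. Pycr1, the last enzyme of proline synthesis, stood at 23.7, 47, 31.1 and 34.3 CPM and 122, 155, 131 and 136 CPM, a log2 fold change of 1.99 (SE 0.31) with an adjusted p of 0.00208. Bcat1, the cytosolic branched-chain aminotransferase, was nearly absent from the controls, at 0, 0.156, 0.265 and 0 CPM, and stood at 2.69, 6.78, 7.27 and 11.1 CPM in the KO-labelled islets, with a log2 fold change of 6.11 (SE 1.08). Aass, which starts lysine breakdown, had a log2 fold change of 4.18 (SE 0.74), and Asns, asparagine synthetase and a classic ATF4 target, went from 87.6, 101, 79 and 106 CPM to 111, 143, 177 and 198 CPM, a call lost in 4 of those 8 fits (adjusted p of up to 0.097). The call that went the other way was the one with the smallest adjusted p of all genes. Glul (ENSMUSG00000026473, GRCm38 chromosome 1, 153899944 to 153909723, plus strand), glutamine synthetase, stood at 462, 463, 564 and 579 CPM in the controls and at 250.4, 218, 228 and 194 CPM in the KO-labelled islets. It was at 43% of control by the fit, a log2 fold change of -1.22 (SE 0.14) with an adjusted p of 0.000404.

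Amino acid transporters were called higher in 9 of 24 cases and lower in 2, against 3.99% and 3.54% of all genes. The list's median log2 fold change was 0.50. The higher calls numbered 5 without control replicate 3 and 6 without control replicate 1 or KO replicate 3. Slc7a11, the cystine importer, stood at 0.0768, 0.290, 0.309 and 0.686 CPM and 4.17, 6.78, 4.60 and 3.60 CPM, a log2 fold change of 3.74 (SE 0.77) with an adjusted p of 0.00757. Slc7a3, an importer of arginine and lysine, went from 0.998, 1.27, 0.838 and 1.07 CPM to 13, 23.4, 24.7 and 38.3 CPM, a log2 fold change of 4.55 (SE 0.69). Slc7a5, the leucine importer, was already abundant and had a log2 fold change of 0.93 (SE 0.19). Slc43a2, another carrier of large neutral amino acids, was lower, at 169.9, 145, 159.8 and 167 CPM against 239.8, 228, 250.5 and 252 CPM. Of 20 cytosolic tRNA synthetases, 3 were called higher and 0 lower, against 3.99% higher among all genes. Of the synthetases 1 was called higher without control replicate 3 or KO replicate 4, and 6 without KO replicate 1. Eprs, which charges glutamate and proline tRNAs, kept its call without any 1 RFD library, with a log2 fold change of 0.76 (SE 0.16).

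ATF4 binds, with a partner of the C/EBP family, a composite element whose core reads TGATGCAA. RefSeq promoter windows on GRCm38.p6, from 250 bases before to 50 after each gene's start, were searched for these letters on both strands. They occurred in 0.895% of all 32851 windows. Of the 688 genes called higher, 521 were matched to a window by symbol, and 12 of them (2.3%) held the letters, among them Chac1, Pycr1, Slc7a11, Slc1a4, Nupr1, Fgf21 and Got1. Of the 610 called lower, 456 were matched and 0 held them, and over all tested genes with a window the share was 0.744%. The overlapping motif TGATGNAAT was in 1.92% of matched genes called higher and 0.439% of those called lower, against 0.592% of tested genes with a window and 0.965% of all windows. A match is a description of sequence and not a measured binding site. Windows of 4 such genes are shown from 20 bases before to 20 after the letters, on the gene's strand, with TGATGCAA or its reverse complement in capitals. Chac1 lies at chr2:119351029-119351076 (plus strand), Pycr1 at chr11:120643824-120643871 (minus), Slc7a11 at chr3:50443633-50443699 (minus) and Nupr1 at chr7:126625553-126625600 (minus).
Chac1: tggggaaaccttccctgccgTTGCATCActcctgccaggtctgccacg
Pycr1: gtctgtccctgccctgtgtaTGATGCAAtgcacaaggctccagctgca
Slc7a11: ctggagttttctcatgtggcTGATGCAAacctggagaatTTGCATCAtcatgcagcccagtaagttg
Nupr1: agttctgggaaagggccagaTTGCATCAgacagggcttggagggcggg
The Slc7a11 window holds the letters on both strands within 27 bases. Whether the number of matches goes with the size of a change was not tested. Nupr1, a small stress-induced chromatin protein, stood at 16.7, 49, 39.9 and 52.1 CPM and 71.9, 146, 125 and 150.4 CPM, a log2 fold change of 1.64 (SE 0.43) with an adjusted p of 0.0246; its call was lost without control replicate 1 or 3 or KO replicate 2 or 4, with an adjusted p of up to 0.073.

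In the other stress and mitochondrial lists of this paragraph 0% to 8.82% of tested members were called, against 7.52% of all genes. Of 25 genes of the endoplasmic reticulum unfolded protein response, 1 was called higher and 0 lower. Their median log2 fold change was 0.26, and 23 of the 25 lay above 0. The called gene was Sel1l, of the degradation machinery, at 106, 129, 142 and 151 CPM and 187, 196, 166 and 185 CPM. No fit without 1 RFD library called it. Hspa5, the chaperone BiP, overlapped between the groups, at 1230.0, 1275, 1027 and 955 CPM and 867, 1269.6, 1438 and 1628 CPM. Of 19 mitochondrial proteases and chaperones, 0 were called higher and 1, the import cofactor Grpel2, lower, a call lost in 6 of the 8 such fits, and the protease Lonp1 stood at 98, 101, 98.5 and 111 CPM and 117, 107, 111 and 103 CPM. Among nuclear subunits of the respiratory chain 1 of 76 was called, and the list's median was 0.02 on the log2 scale. That gene was Cox7a2l, a respiratory supercomplex factor, at 77.2, 81.1, 83.9 and 78.5 CPM against 106, 99.1, 126 and 128 CPM, with a log2 fold change of -0.52 (SE 0.11). Of the 13 proteins encoded by mitochondrial DNA, 8 passed the count filter and 0 of them were called. Their median change was -0.35 on the log2 scale, and 0 of the 8 lay above 0. Their transcripts made up 1.71% ± 0.534 of all counts in the KO-labelled islets and 2.14% ± 0.891 in the controls (SD, n = 4 each; two-sided exact permutation p = 0.4, where 0.0286 is the smallest that 4 against 4 can give). Autophagy and lysosome genes gave 2 calls higher and 1 lower of 34, among them the phagophore protein Wipi1, which rose from 33.1, 55.4, 43.9 and 41.3 CPM to 81, 154, 89.7 and 81.1 CPM.

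**Figure D2:**
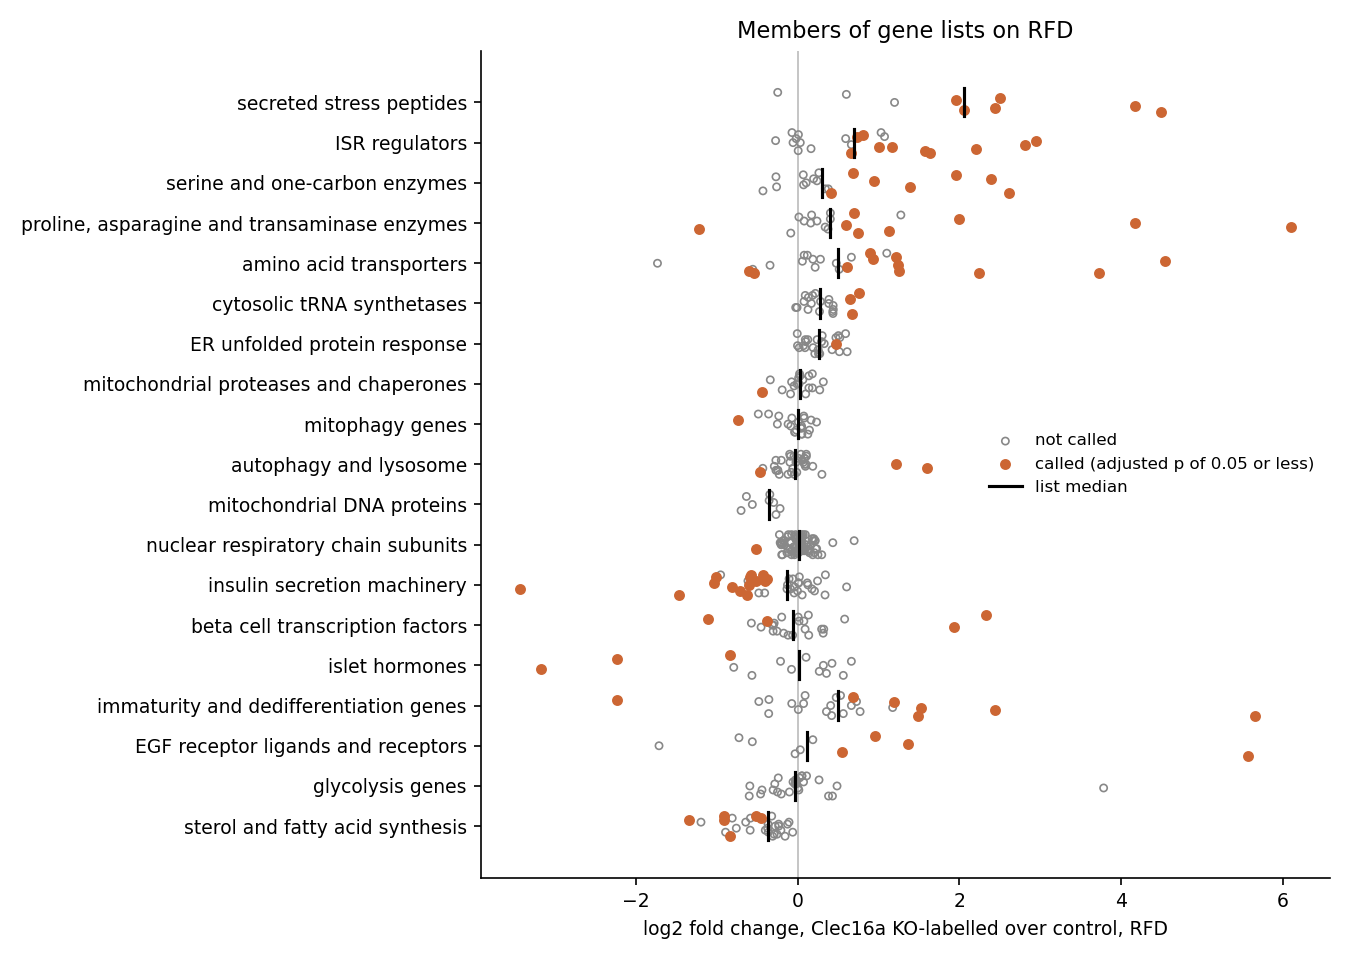
Log2 fold change on RFD of every tested member of 19 gene lists; filled points passed the test, open points did not, and black bars are list medians. Called members of the 5 uppermost lists lie mostly above 0, with medians from 0.30 to 2.06, while the 14 called genes of the insulin secretion machinery and the 6 of sterol and fatty acid synthesis lie below 0.

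Several genes that beta cells need to sense glucose and release insulin fell, while the insulin genes themselves were not called. Of 38 genes of the insulin secretion machinery, 14 were called lower and 0 higher, against 3.54% lower among all genes, and the list's median log2 fold change was -0.13. In fits without 1 RFD library 6 to 12 were called lower, with 6 without control replicate 3, 7 without control replicate 4 or KO replicate 2, and 8 without KO replicate 3 or 4. Slc2a2, the glucose transporter GLUT2, stood at 564, 698, 802 and 928 CPM in the controls and at 381, 258, 232 and 209.8 CPM in the KO-labelled islets, a log2 fold change of -1.47 (SE 0.34) with an adjusted p of 0.0137. Trpm5 (ENSMUSG00000009246, GRCm38 chromosome 7, 143069153 to 143094642, minus strand), a calcium-activated cation channel, fell furthest of the list, from 246, 204, 276 and 304 CPM to 37, 12, 28.3 and 18.3 CPM, or 9.26% of control, a log2 fold change of -3.43 (SE 0.73) with an adjusted p of 0.00882.

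The incretin receptor Glp1r stood at 737, 1005, 898 and 912 CPM and 579, 572, 509.8 and 514 CPM, a log2 fold change of -0.71 (SE 0.15). Sstr3, a somatostatin receptor, at 280.0, 224, 305 and 315 CPM and 177, 179, 204 and 167 CPM, and Rab27a, which docks granules, had log2 fold changes of -0.63 (SE 0.11) and -0.40 (SE 0.09). Calls for Slc2a2, Trpm5, Glp1r, Sstr3 and Rab27a held without any 1 RFD library. The fatty acid receptor Ffar1 fell from 165, 131, 194 and 198 CPM to 124, 92.2, 122 and 116 CPM, a call lost without control replicate 3 or 4 or KO replicate 2 (adjusted p of up to 0.063). The second incretin receptor, Gipr, was 323, 342, 381 and 356 CPM and 253, 185, 162 and 100 CPM, with a call lost in 7 of the 8 such fits (adjusted p of up to 0.11).

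Insulin, amylin, glucagon and somatostatin genes were not called, and 3 other hormone or peptide genes fell. Ins2 stood at 205400.2, 230919.6, 164827 and 159859 CPM in the controls and at 179252, 144019, 160469 and 174104 CPM in the KO-labelled islets, with an adjusted p of 0.515. Ins1 stood at 35211, 92245, 33606 and 32951 CPM and 33352, 33124, 35465 and 29315 CPM, where control replicate 2 alone was high, and Ins1 and Ins2 are similar enough that reads may be shared between them. Of 14 hormone and peptide genes, 3 were called lower and 0 higher, or 21.4% against 7.52% of all genes. Their median log2 fold change was 0.02. Ucn3, a peptide of mature beta cells, stood at 777, 764, 845 and 857 CPM and 506, 456, 430.3 and 423 CPM, a log2 fold change of -0.84 (SE 0.16) with an adjusted p of 0.00512. Nnat, the proteolipid neuronatin, fell from 199, 56.2, 113 and 151 CPM to 17.8, 11.1, 17.2 and 11.4 CPM, a log2 fold change of -3.17 (SE 0.43) with an adjusted p of 0.00116. Npy, a neuropeptide of immature beta cells, also fell, from 51.8, 14.4, 44.3 and 56.8 CPM to 12.4, 5.42, 11.5 and 6.30 CPM. All 3 calls held without any 1 RFD library.

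Of 25 beta-cell transcription factors tested, 2 were called higher and 2 lower, or 16% against 7.52% of all genes. Mafa stood at 536, 278, 416 and 412 CPM and 429, 261, 486 and 339 CPM, and its groups overlapped, as did those of Pdx1 and Nkx6-1. Mlxipl, which encodes the glucose-responsive factor ChREBP, fell from 653, 544, 958 and 789 CPM to 398, 346, 389 and 237 CPM, a log2 fold change of -1.10 (SE 0.22) with an adjusted p of 0.00643. The 2 that rose, Insm2 and Bach2, stayed low, at 1.54, 1.10, 1.42 and 2.13 CPM and 2.97, 4.27, 2.88 and 4.74 CPM in the KO-labelled islets, and each lost its call in 3 of the 8 fits without 1 RFD library, with adjusted p of up to 0.066 and 0.055.

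**Figure D3:**
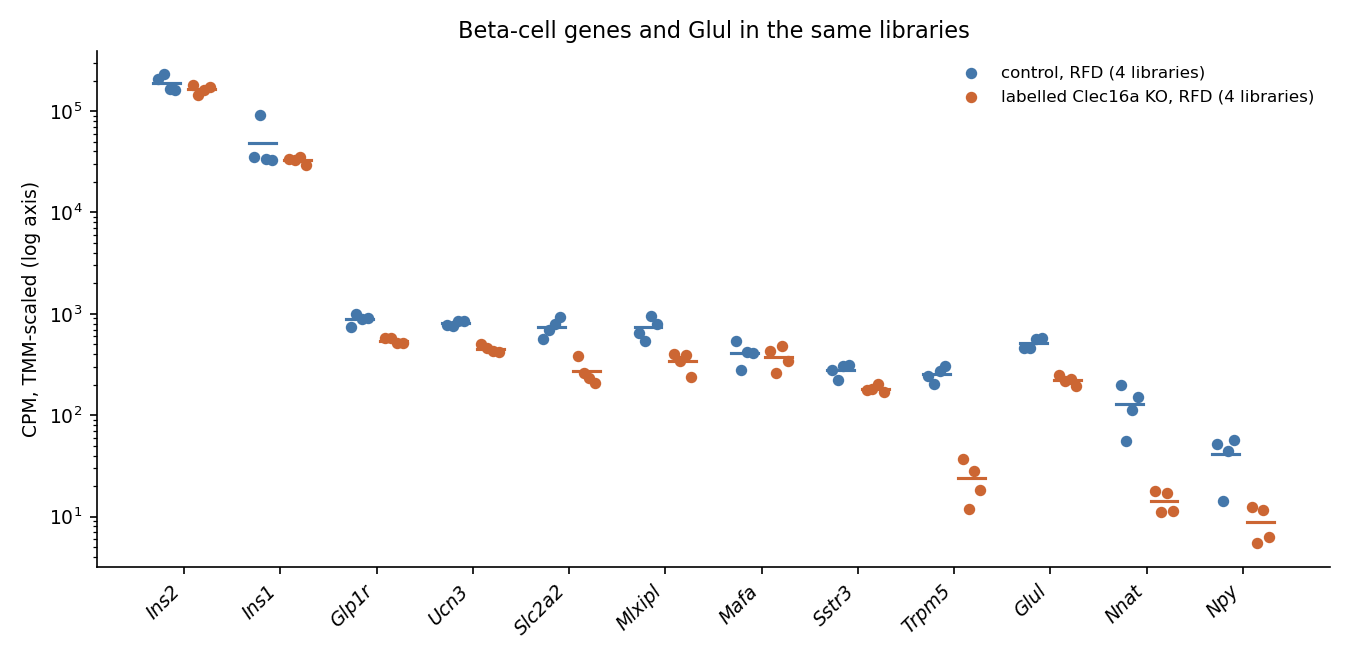
CPM on a log axis for 12 genes in the same 4 control (blue) and 4 KO-labelled (orange) libraries; bars are group means. Ins2, Ins1 and Mafa overlap between the groups, while Slc2a2, Sstr3, Glp1r, Ucn3, Mlxipl, Trpm5, Glul, Nnat and Npy are lower in every KO-labelled library than in any control.

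Genes of immature or dedifferentiated beta cells were called higher in 6 of 24 cases and lower in 1, which was Npy. The shares among all genes were 3.99% higher and 3.54% lower. The list's median log2 fold change was 0.51. Aldh1a3, an aldehyde dehydrogenase and a marker of dedifferentiated beta cells, stood at 1.92, 2.97, 1.32 and 2.21 CPM in the controls and at 21.4, 267, 36.6 and 116 CPM in the KO-labelled islets. Every KO-labelled library was above the controls, but the 4 differed among themselves more than 10-fold. The log2 fold change was 5.66 (SE 0.98), with an adjusted p of 0.00358. Serpina7, a thyroxine-binding globulin, was also highest in KO replicates 2 and 4, at 17.8, 65.8, 31.4 and 62.1 CPM against 5.87, 11.3, 7.28 and 8.08 CPM. Cd81, a tetraspanin of immature beta cells, was more even, at 83.3, 71.5, 88 and 78.7 CPM and 186, 198, 185 and 163 CPM, a log2 fold change of 1.19 (SE 0.21). Of 27 genes normally kept low in beta cells, 2 were called higher and 0 lower, or 7.41% against 7.52% of all genes, with a median log2 fold change of 0.49. In fits without 1 RFD library 0 or 1 of them was called.

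Some ligands of the EGF receptor rose. Of 10 tested ligands and receptors, 4 were called higher and 0 lower, against 3.99% higher among all genes, and all 4 are ligands. Without control replicate 3 or 4 only 2 were called. Areg, amphiregulin, stood at 0.0384, 0.156, 0.309 and 0.330 CPM in the controls and at 11.2, 10.9, 8.26 and 10.5 CPM in the KO-labelled islets, a log2 fold change of 5.58 (SE 0.98) with an adjusted p of 0.00370. Tgfa stood at 6.49, 8.36, 7.32 and 8.64 CPM and 21.8, 16.7, 16.4 and 24.6 CPM, with a log2 fold change of 1.36 (SE 0.24). The receptor Egfr was not called, at 12.2, 10.6, 15.3 and 16.1 CPM and 11.1, 8.98, 9.37 and 7.48 CPM, with an adjusted p of 0.103. Hbegf was called with overlapping groups, at 9.64, 17.2, 6.84 and 8.43 CPM and 20.5, 15.2, 23.4 and 23.1 CPM, and lost its call without control replicate 3 or 4 (adjusted p of up to 0.059). Feedback genes of the ERK kinases, a list chosen after its values were seen, gave 7 of 14 called higher and 0 lower. The share higher among all genes was 3.99%. In fits without 1 RFD library 0 or 1 of the list was called lower and 3 to 5 higher. Those higher numbered 3 without control replicate 1, 3 or 4 or KO replicate 2. Among them Spry4 stood at 6.14, 8.54, 6.13 and 6.48 CPM and 20.3, 21.2, 21.9 and 17.4 CPM, and Etv5 at 11.8, 14.7, 5.78 and 6.48 CPM and 54.1, 71.4, 50.1 and 65.5 CPM.

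Genes of sterol and fatty acid synthesis were called in 1 direction. Of 29 genes, 6 were called lower and 0 higher, against 3.54% lower among all genes. None of the 29 had a log2 fold change above 0, and the median was -0.37, against -0.002 over all genes. Without control replicate 1 only 1 of them was called, 2 were without control replicate 3, and 3 without control replicate 4 or any 1 KO-labelled library. Hmgcs1, an early enzyme of cholesterol synthesis, fell from 77.7, 52.6, 51.7 and 48.1 CPM to 29.4, 29.7, 32.4 and 31.2 CPM, with an adjusted p of 0.0130 that was 0.051 without control replicate 1. Among genes of iron handling, again a list chosen after its values were seen, 2 of 9 were called lower and 0 higher, against 3.54% lower among all genes. Ferritin light chain, Ftl1, stood at 422, 482, 430.5 and 467 CPM and 240.5, 273, 259 and 281 CPM, and the transferrin receptor Tfrc at 76.7, 78.3, 75.7 and 78.8 CPM and 28.6, 31.1, 21.2 and 30.1 CPM. Glycolysis gave 0 calls in 27 genes.

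Lists of other cell programmes gave the following calls, against 7.52% of all genes called in either direction. Of the called genes named for them Cdkn1a, Hrk, Ftl1 and Pld6 kept their call in each of the 8 fits without 1 RFD library; the others lost it in 1 to 7 of them. Granule and prohormone processing genes gave 2 called higher and 1 lower of 21, or 14.3%. The granule proteins Scg2 and Ptprn were higher, Scg2 at 5291, 5898, 5786 and 6469 CPM and 8142, 11018, 8358 and 9983 CPM, and the calcium sensor Scgn was lower, at 527, 379, 404 and 401 CPM and 249, 192, 265 and 304 CPM. Targets of NRF2, the regulator of the antioxidant response, went both ways, with 3 called higher and 2 lower of 24, or 20.8%, and a median log2 fold change of 0.03. Srxn1 (sulfiredoxin), Osgin1 and Gclc, which starts glutathione synthesis, had log2 fold changes of 0.50 (SE 0.14), 0.66 (SE 0.18) and 0.37 (SE 0.10), while Ftl1 and the pentose phosphate enzyme Tkt were lower. Of 25 p53 targets and apoptosis genes, 3 were called higher and 1 lower, or 16%. Cdkn1a and Hrk were 2 of those that rose. Hrk, a BH3-only death gene, was low but higher in all KO-labelled libraries, at 0.0384, 0, 0.220 and 0.152 CPM and 1.89, 2.66, 2.83 and 2.54 CPM. Aen, a nuclease, had a log2 fold change of 0.66 (SE 0.20), and Bcl2l11, which encodes the death protein BIM, stood lower at 23, 13.7, 14.3 and 13.1 CPM against 23.7, 22.2, 27.7 and 28.4 CPM.

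Cell cycle genes gave 1 call in each direction of 24: Ccnd2, cyclin D2 of beta cells, was higher with a log2 fold change of 0.45 (SE 0.12), and Cdk4, its kinase partner, lower with -0.31 (SE 0.08). Interferon-stimulated genes also gave 1 each of 30, Ifi44 higher and Irf1 lower. Of 15 genes of mitochondrial fusion and fission 1 was called, Pld6, a lipase of the outer mitochondrial membrane, at 0.845, 1.76, 0.882 and 0.914 CPM and 3.37, 2.56, 2.36 and 2.35 CPM. Of 17 mitochondrial tRNA synthetases 1 was called, Nars2, which was lower. Genes of mitochondrial DNA upkeep gave 0 calls in 27.

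Among genes outside these lists, those with the smallest adjusted p that rose were led by Gm2115 (ENSMUSG00000097789, GRCm38 chromosome 7, 84528954 to 84583531, plus strand), at 2.07, 1.94, 1.98 and 2.29 CPM in the controls and 33.4, 84.1, 61.4 and 108 CPM in the KO-labelled islets. Its log2 fold change was 5.11 (SE 0.67), with an adjusted p of 0.00116. Slc35f1 and the LIM-domain regulator Lmo1 had log2 fold changes of 2.16 (SE 0.29) and 3.12 (SE 0.44). Stc2, stanniocalcin 2, a secreted glycoprotein, stood at 0.0384, 0.312, 0.220 and 0.381 CPM and 6.63, 8.13, 6.49 and 5.77 CPM. Mc5r, a melanocortin receptor, stood at 0, 0.713, 0.0882 and 0.0762 CPM and 6.69, 8.98, 7.79 and 10.8 CPM. Of the genes that fell, Baiap2, an actin adaptor, stood at 34.7, 19.6, 47.6 and 36.9 CPM and 11.6, 9.44, 8.78 and 9.84 CPM, a log2 fold change of -1.81 (SE 0.24) with an adjusted p of 0.00116. Th, tyrosine hydroxylase of catecholamine synthesis, fell from 91.9, 74.4, 114 and 93.6 CPM to 40.5, 39.3, 23.1 and 35.6 CPM. Mslnl, a mesothelin-like gene, had a log2 fold change of -3.67 (SE 0.66).

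The summed level of endothelial markers was higher in every KO-labelled library than in any control. In 10 of the 11 markers the groups did not overlap, against 15.1% of all genes. Of the 11, 10 were called higher and 0 lower, against 3.99% higher among all genes, with a median log2 fold change of 0.70. The summed level of the endothelial markers ran from 572.6 to 606.8 CPM in the controls and from 951.6 to 1059 CPM in the KO-labelled islets (two-sided exact permutation p = 0.0286, the smallest possible, and 0.114 after Benjamini-Hochberg adjustment over 12 sums). Kdr, a VEGF receptor, stood at 78.2, 89, 89.7 and 88.5 CPM and 147, 145, 130.4 and 145 CPM, and Plvap, the diaphragm protein of fenestrated vessels, at 141, 148, 148 and 136 CPM and 325, 272, 247 and 253 CPM. In bulk RNA, more cells of a type and more RNA per cell cannot be told apart.

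Stellate and fibroblast markers gave 3 calls higher of 11, against 3.99% higher among all genes, and 0 without control replicate 3 or 4. Their sums were 208.2 to 286.9 CPM against 146.3 to 160.2 CPM. Duct markers summed to 930.4 to 1142 CPM against 840.1 to 895.6 CPM, with 1 of 10 called (10% against 7.52% of all genes). That was the matrix protein Spp1, at 77.9, 89.6, 35.1 and 246 CPM against 16.9, 25.5, 15.6 and 18.3 CPM. By mean log2 CPM, which weighs each marker alike, both lists overlapped between the groups. Duct means were 3.41 to 3.95 against 3.22 to 3.62, and stellate and fibroblast means 2.385 to 3.50 against 2.22 to 2.393. Endothelial means did not overlap, at 5.62 to 5.88 against 4.90 to 5.07. Macrophage markers gave 1 call, C1qa, which was lower, and lymphocyte markers 1, Cd79a of B cells, also lower, at 3.37, 2.56, 2.12 and 2.01 CPM against 8.72, 9.07, 17.8 and 14.3 CPM. Of the 10 lymphocyte markers tested 9 had a log2 fold change above 0, with a median of 1.33. Exocrine markers ran widely, from 2385 to 16031 CPM in the KO-labelled islets and from 5240 to 12056 CPM in the controls. Summed alpha, delta, PP and beta cell markers overlapped between the groups. The beta sum was mostly Ins2 and Ins1. The mean log2 CPM of the 10 beta markers was lower in every KO-labelled library than in any control. It stood at 11.10, 11.28, 11.01 and 11.08 in the controls and at 10.85, 10.70, 10.85 and 10.77 in the KO-labelled islets. Of these 10 markers 2 were called lower, Slc2a2 and Ucn3, and 0 higher, or 20% against 7.52% of all genes. Their median log2 fold change was -0.16, and 3 of the 10 lay above 0. On that scale alpha, delta and PP markers still overlapped. With the exocrine level as a covariate 1850 genes were called. Apart from the fits with the exocrine or endothelial level, the part of other cell types in the results was not tested.

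**Figure D4:**
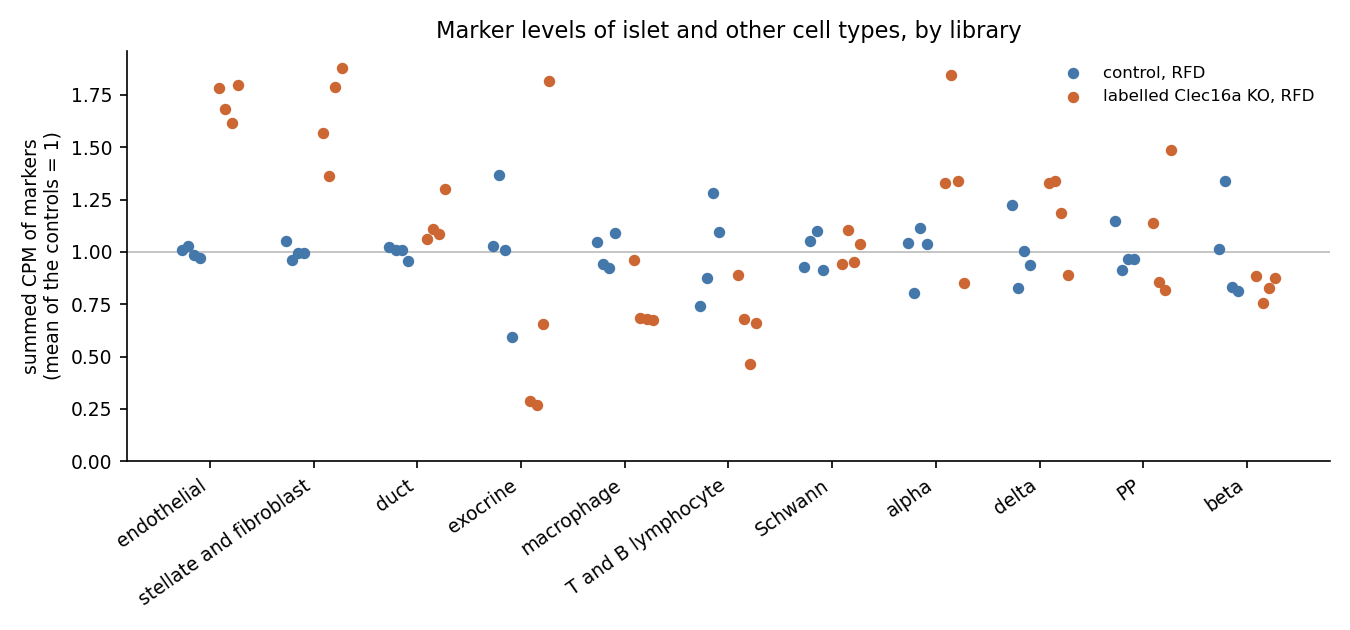
Summed CPM of 11 marker lists in each library, divided by the mean of the 4 controls; blue points are controls and orange points KO-labelled libraries on RFD. Endothelial, stellate and fibroblast, and duct sums do not overlap between the groups, and the other 8 do. By mean log2 CPM, which is not drawn, duct and stellate and fibroblast markers overlap. On that scale beta markers are lower and T and B lymphocyte markers higher in every KO-labelled library. Of the 10 beta markers 2 were called.

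The same genotypes were compared on HFD, with other libraries as controls. There 1652 genes were called (9.57% of those tested), 970 higher (5.62%) and 682 lower (3.95%). That count was 3369 without KO replicate 4 of HFD, 873, 826 and 786 without KO replicate 1, 2 or 3, and 1049 without control replicate 5. It was 209 without the 4 libraries with intestinal transcripts, KO replicate 1 on RFD and control replicates 1, 2 and 5 on HFD. Of the 688 genes called higher on RFD, 486 were called higher on HFD, 70.6% of the RFD calls and 50.1% of the HFD calls. Of the 610 called lower on RFD, 367 were called lower on HFD, 60.2% and 53.8% of the 2 sets. None was called in the opposite direction. Without KO replicate 4 of HFD the shared calls were 84.01% of the RFD and 50.4% of the HFD genes called higher, and 84.4% and 50.4% of those called lower. Without the 4 intestinal libraries they were 21.2% and 70.9% of the genes called higher, and 11.3% and 82.8% of those called lower. The test of the difference between the diets called 0 genes (0%) by edgeR, with 406 at an unadjusted p under 0.05, and 20 by the Wald test of DESeq2. The genes with the smallest p for a larger change on RFD were intestinal, Alpi, Apoa4, Muc13, Prap1 and Fabp2. Of 15 intestinal genes, again a list chosen after its values were seen, 14 had an unadjusted p under 0.05. That count is therefore only a description of these 15 genes. Their summed level was 249.2 CPM in KO replicate 1 on RFD, and 250.2, 734.2 and 517.3 CPM in control replicates 1, 2 and 5 on HFD. Without these 4 libraries 0 genes were called, with 433 at an unadjusted p under 0.05. The HFD values of lists and single genes that follow include KO replicate 4 of HFD, which lay with the controls. How far that library alters them, or their difference from RFD, was not tested. Regulators of the integrated stress response gave 13 calls higher on HFD against 10 on RFD, secreted stress peptides 7 against 6, and the insulin secretion machinery 12 lower against 14. Gdf15 had a log2 fold change of 4.69 on HFD, Trib3 one of 3.57, Aldh1a3 one of 5.93, Glul one of -1.02 and Trpm5 one of -2.27. Sterol and fatty acid genes gave 6 calls on RFD and 0 on HFD, where their median was -0.20, and no member of the list was called for the difference. Aacs, which makes acetoacetyl-CoA for lipid synthesis, and Irs1, the insulin receptor substrate, were among the genes with the smallest p for a smaller value on RFD: Aacs had log2 fold changes of -0.89 on RFD and -0.23 on HFD, and Irs1 of -0.63 and -0.11, with adjusted p of 0.9999 and 0.9999 for the difference.

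**Figure D5:**
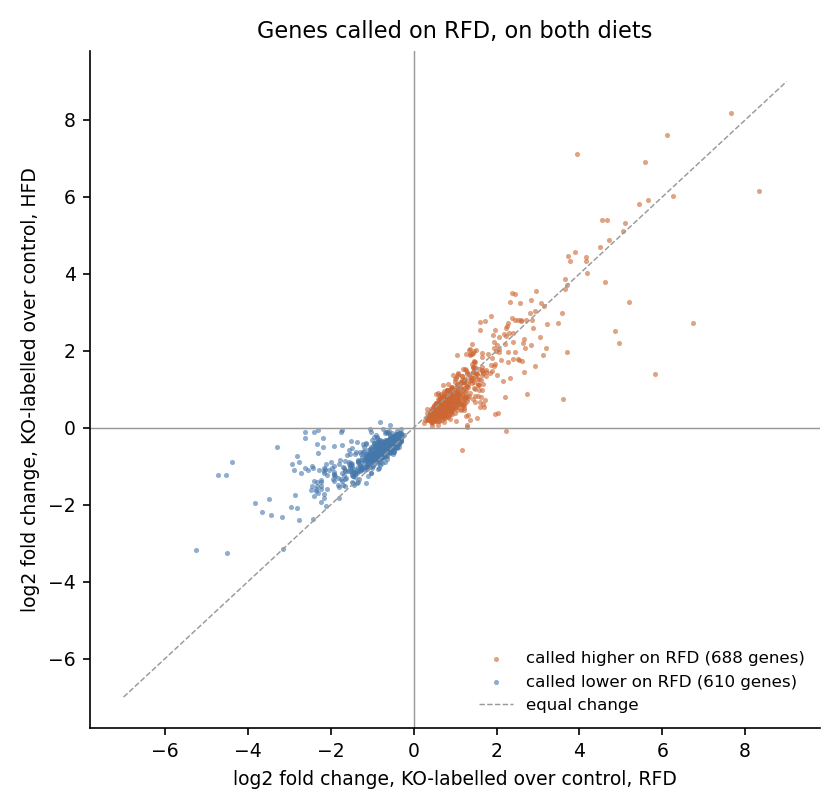
Log2 fold change on RFD (x axis) and HFD (y axis) of the 688 genes called higher and 610 called lower on RFD; the dashed line marks equal change. Of these genes, 686 of the first and 608 of the second have the same sign on both diets.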

How the data were processed

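RNA-seq libraries of cultured mouse islets were analysed, 4 Clec16a control and 4 Clec16a KO on RFD, with 11 HFD libraries in the same model. The submitters' processing notes name STAR 2.6.1b, RSEM 1.3.1, featureCounts, DESeq2 and build GRCm38, without their roles. The deposited raw counts, so named per the file headers, are whole reads per gene, taken without rounding. The authors' TPM columns, also per the file headers, and their CPM were not used for any result. Depth was 17560160 to 55810880 counts per RFD library. A gene with 0 counts may still hold up to 3, which covers counting error only.

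Groups came from the labels. In R 4.3.3, edgeR 4.0.16 was run with TMM normalization, the filterByExpr filter, 1 mean per group and the quasi-likelihood F-test, with Benjamini-Hochberg adjustment over 17254 genes. The standard error is the size of the log2 change over the square root of F. Sums were compared with two-sided exact permutation tests. The procedure was tested on simulated data. The members and the gene lists were chosen with earlier results of these data known. Genes named are the target, the first 3 and up to 5 called members of each list, and per direction the 12 with the smallest p and the 8 with the largest change among those with at least 5 CPM and no overlap, and the 5 with the smallest p for the difference between diets. Not every such gene is printed, and some are not reported here. Ppp1r15a, Nupr1, Shmt2, Got1, Slc1a4, Gipr, Ffar1, Etv5 and Tfrc fall outside this rule and were chosen after their values were seen.

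Alternatives were the size factors and the Wald test of DESeq2 1.42.0, no filter, at least 10 counts in every library, each library left out, the replicate block, lane (read from the file names) or exocrine level as a covariate, and only the compared groups. Added after seeing the data were fits without libraries that stood apart and with the endothelial or Xist level as a covariate. Positions are from GENCODE M21.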

Additional observations from a re-analysis of the deposited data

Results flagged for a closer look

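Within the 4 libraries of a group, 1 library stood far from the other 3 in 18 of 240 sets of values examined, and chance alone flags about 1 in 20. Among the controls, replicate 2 was high for Ins1 (92245 CPM), Spry4 (8.54 CPM), Pld6 (1.76 CPM) and Mc5r (0.713 CPM) and low for Rab27a (199.9 CPM). Control replicate 1 was high for Hmgcs1 (77.7 CPM), Scgn (527.4 CPM) and Aacs (106.3 CPM) and low for Kdr (78.2 CPM). Control replicate 4 was high for Psat1 (13.1 CPM) and Alpi (0.0254 CPM), and control replicate 3 was low for Psph (5.25 CPM).

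Among the KO-labelled libraries, replicate 1 was high for Alpi (32.6 CPM), Bcl2l11 (23.04 CPM), for the summed macrophage markers (202.5 CPM against 141.8 to 144.0 in the others) and for the summed intestinal genes (249.2 CPM against 92.6 to 101.1). KO replicate 2 was high for Wipi1 (153.9 CPM) and KO replicate 3 low for Kdr (130.4 CPM).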

How the results depend on the processing

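On RFD, 1298 genes were called. Leaving out 1 RFD library at a time gave 523 to 1224 calls, and leaving out KO replicate 4 of the HFD group gave 2015. With the endothelial level as a covariate 0 were called, and with Xist 629. On HFD, where 1652 were called, the replicate block gave 975, leaving out 1 library gave 786 to 3369, and removing the libraries with intestinal transcripts gave 209. The difference between diets gave 0 calls in every fit but the Wald test of DESeq2, with 20. Same-numbered libraries had residual correlations of -0.20, -0.14, -0.04 and -0.17 on RFD, and differently numbered ones ran from -0.21 to 0.19. With 4 libraries per group these values cannot show whether the numbers mark a pairing. The replicate block gave 978 calls on RFD. The share of counts from mitochondrial DNA, 0.43 points lower in the KO-labelled islets, gave differences of -0.712 to -0.16 points when 1 library was left out.

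Of the 91 called genes named, 64 to 91 stayed called in the fits other than that with the endothelial level, and none changed sign there. With the endothelial level as a covariate none stayed called; Gdf15 then had a log2 fold change of 1.24, Bcat1 1.40, Aldh1a3 1.65, Glul -0.83 and Nnat -1.76. The sign turned for Clec16a (-0.046), Ddit3 (-0.29), Ppp1r15a (-0.068), Fgf21 (-0.54), Lonp1 (-0.22), Ins1 (0.10), Ins2 (0.0028), Sst (-0.074), Pdx1 (-0.10), Nkx6-1 (-0.091), Slc2a2 (0.0031), Gipr (0.19), Egfr (0.053), Plvap (-0.010), Scg2 (-0.10), Aen (-0.14), Srxn1 (-0.013), Osgin1 (-0.059), Grpel2 (0.034) and Irf1 (0.0080). The cause was not tested. Among uncalled genes, Usp8 changed sign with the exocrine covariate (-0.018) and in fits without 1 library (range -0.015 to 0.11), Iapp with the exocrine covariate (0.0092), in fits without 1 library (-0.18 to 0.030) and without the libraries with intestinal transcripts (0.0062, or 0.0066 in RFD libraries alone), and, again without 1 library, Mafa (-0.26 to 0.039), Pdx1 (-0.019 to 0.14) and Nkx6-1 (-0.010 to 0.20). The summed PP markers differed by -357.8 to 931 CPM and the Schwann markers by -0.599 to 1.22 CPM in fits without 1 library.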

Other observations

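One library labelled Clec16a KO on HFD, replicate 4, lay with the controls. On the first principal component of the 19 libraries (29.4% of the variance) it stood at -13.1, where the controls ran from -39.3 to -8.97 and the other KO-labelled libraries from 7.92 to 40.5. Its values entered the RFD comparison through the shared estimate of spread, the count filter and the scaling of libraries. Without this library 16860 genes were tested on RFD, against 17254 with it.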
